A study of Mus musculus with 12 samples.

Results

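The transcripts examined here are those of 10 genes of the ATF4 and CHOP arm of the integrated stress response: Atf4, Atf5, Atf3, Ddit3, Asns, Psat1, Trib3, Chac1, Sesn2 and Ppp1r15a. They were chosen by symbol as genes that can respond when translation is altered, and they matched 11 of the 55487 rows of the count table. The 11th row is a second entry named Ddit3, of 105 exonic bases inside the Ddit3 gene on the same strand, and it held 0 counts in all 12 libraries. Ddit3 is therefore described from its main row (ENSMUSG00000025408.15). Because the entries overlap on the same strand, the reads of this pair, and the 0 counts, are less certain.

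The 12 libraries hold RNA of 2 organs, liver and brain, taken from each of 6 mice, and fall into 4 groups of 3. KO liver and KO brain came from mice A, C and F, which lack Mettl5, the methyltransferase that places m6A on 18S rRNA, and WT liver and WT brain came from mice B, D and E. In the study's methods the allele was made in C57bl/6 x 129S6 hybrid ES cells by placing exon 2 between loxP sites, the mice were backcrossed to B6, and exon 2 was removed throughout the body with a CMV-cre transgene. The controls are WT by their labels, but parts of the study describe its RNA-seq controls as heterozygous mice, and the labels give neither age, sex nor batch, although the study used both sexes and a range of ages.

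In the integrated stress response, kinases that sense amino acid shortage, unfolded proteins, double-stranded RNA or haem shortage phosphorylate the translation factor eIF2. General initiation then slows, while the mRNA of the transcription factor ATF4 is translated better because of short reading frames in its leader. ATF4 raises transcription of genes for amino acid supply, of further transcription factors such as CHOP (encoded by Ddit3), and of Ppp1r15a, whose product GADD34 brings a phosphatase back to eIF2. The liver and the brain both carry this pathway. Because ATF4 itself is controlled largely at translation, transcript levels of its targets are the usual readout in RNA-seq.

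In mm10, the transcription factor genes lie at chr15:80255184-80257541 (plus strand) for Atf4, chr7:44812256-44816658 (minus strand) for Atf5, chr1:191170296-191218039 (minus strand) for Atf3 and chr10:127290774-127296288 (plus strand) for Ddit3. The synthesis enzymes lie at chr6:7675169-7693254 (minus strand) for Asns and chr19:15904678-15947337 (minus strand) for Psat1. The remaining genes lie at chr2:152337422-152344032 (minus strand) for Trib3, chr2:119351229-119354381 (plus strand) for Chac1, chr4:132492032-132510501 (minus strand) for Sesn2 and chr7:45522916-45526268 (minus strand) for Ppp1r15a. All 10 are protein-coding genes. Genes on the opposite strand overlap Atf5 (Nup62 and Il4i1), Atf3 (Gm24748), Ddit3 (Gm4189 and Mars), Psat1 (Gm3329) and Ppp1r15a (Tulp2), and the counting used strand, while Gm12981 overlaps Sesn2 on the same strand, so that the reads of this pair are less certain.

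ATF4 binds with C/EBP partners to the letters TGATGNAA, and these were searched on both strands in the RefSeq promoter sequences (GRCm38.p6), each of 250 bases before and 50 bases after a RefSeq start site. All 10 genes had a promoter sequence, 12 in all. The letters stood in the promoters of 4 genes, Chac1, Atf3, Trib3 and Asns, and in 3.97% of the 32851 promoters of the table. Windows of 120 bases around these matches are shown because these 4 genes differed from one another in the comparisons described next. They are written on the strand of the gene, with the match in capitals, which reads TTNCATCA where the letters lie on the other strand.
Chac1 (plus strand, chr2:119350992-119351111): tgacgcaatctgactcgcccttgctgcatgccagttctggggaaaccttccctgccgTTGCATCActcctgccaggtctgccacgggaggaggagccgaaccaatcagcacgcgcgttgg
Atf3 (minus strand, chr1:191183396-191183515): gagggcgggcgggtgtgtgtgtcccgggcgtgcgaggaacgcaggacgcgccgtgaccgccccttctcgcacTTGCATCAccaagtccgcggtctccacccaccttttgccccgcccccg
Trib3 (minus strand, chr2:152344032-152344151): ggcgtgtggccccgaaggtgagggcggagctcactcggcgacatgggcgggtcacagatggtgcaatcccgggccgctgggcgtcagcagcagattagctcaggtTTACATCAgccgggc
Asns (minus strand, chr6:7693185-7693304): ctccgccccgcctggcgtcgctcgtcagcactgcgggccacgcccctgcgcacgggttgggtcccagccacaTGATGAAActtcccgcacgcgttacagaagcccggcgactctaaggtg
The matches of Chac1, Atf3 and Asns lay before the RefSeq start site and that of Trib3 lay just after it. These start sites differ from the ends of the gene spans given above. Against those spans, the matches of Chac1 and Trib3 lay outside, before the gene, and those of Asns and Atf3 lay inside, the latter 34596 bases from the start of the Atf3 span. A match describes these letters and not an occupied site.

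The libraries held between 14403309 and 21623180 counts each. In liver, Mettl5 stood at 10.5 ± 3.87 CPM in WT and 3.85 ± 0.215 CPM in KO (SD, n = 3), and in brain at 6.66 ± 2.14 and 3.70 ± 0.328 CPM. The KO libraries lay below the WT libraries in both tissues but held the transcript (log2 -1.44, SE 0.27, adjusted p = 0.383 in liver and log2 -0.84, SE 0.27, adjusted p = 0.373 in brain), and the counts run over all exons of the gene. CPM are counts divided by the library size after TMM scaling within a tissue, and they serve to compare genotypes. The 6 hepatocyte markers together stood at 74367 to 99872 CPM in the 6 liver libraries and at 87.5 to 299 in the 6 brain libraries, on a scale shared by the 12 libraries, while the 6 neuronal markers stood at 2716 to 3343 in brain and 13.2 to 25.9 in liver. In brain, marker lists for regions also separated the genotypes. These lists were chosen with earlier results of these data known, so the separation describes the samples and is not a test. The 8 olfactory bulb markers summed to 35.6 to 53.7 CPM in KO and 5.71 to 13.7 in WT, the 8 cerebellum markers to 183 to 552 and 740 to 1242, and the 7 choroid plexus markers to 89.8 to 145 and 179 to 309. Ttr, which is in both the hepatocyte and the choroid plexus list, made up 85% to 94.2% of both sums in brain. Without it, an alternative chosen after seeing the data, the 5 other hepatocyte markers summed to 9.42 to 25.4 CPM in brain, and the 6 other choroid plexus markers to 13.5 to 18.3 in KO and 22.3 to 35.9 in WT. Of the 8 olfactory bulb markers, 6 did not overlap between genotypes, and Th and Eomes did. Of the 8 cerebellum markers, 7 did not overlap, and Calb2 did. Of the 7 choroid plexus markers, Ttr, Clic6, Kcnj13 and Otx2 did not overlap and Kl, Folr1 and Aqp1 did. Over all genes tested in brain, libraries did not overlap for 8.41% with KO above WT and 7.94% with KO below WT. In WT brain, S100a5 and Tbx21 of the olfactory bulb list had at most 3 counts in every library, whereas no marker of the cerebellum or choroid plexus list was that low in either genotype. In these bulk samples, how much of a region or cell type a sample held and how much RNA each cell held cannot be told apart.

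The 10 genes were first ordered by their levels per length, as RPKM, which divide the scaled counts by exonic length, on a scale shared by the 12 libraries. In WT liver, Atf5 stood highest at 74.4 ± 14.5 RPKM, followed by Atf4 at 48.7 ± 8.33 (SD, n = 3), and the ranges of both were apart from each other and from the next gene, Ppp1r15a at 6.55 ± 1.95. Ppp1r15a overlapped with Ddit3 at 4.35 ± 0.544, Trib3 at 2.49 ± 1.15 overlapped with Sesn2 at 2.13 ± 0.307, and Atf3 (1.29 ± 0.45), Chac1 (0.801 ± 0.54) and Asns (0.43 ± 0.637) each overlapped with the gene below it, down to Psat1 (0.107 ± 0.0131). In WT brain the order was different. Atf4 led at 23.4 ± 0.642 RPKM, ahead of Ddit3 at 12 ± 1.51 and Asns at 11.7 ± 1.81, which overlapped, and of Psat1 at 9.11 ± 0.598 and Ppp1r15a at 5.56 ± 0.853. Atf5 was only sixth there, at 2.97 ± 0.252 RPKM, above Chac1 (1.16 ± 0.181) and Sesn2 (1.07 ± 0.211), which overlapped, and above Atf3 (0.336 ± 0.154) and Trib3 (0.105 ± 0.106), which overlapped as well. In KO liver, Chac1 at 1.87 ± 0.321 RPKM stood above Atf3 at 0.838 ± 0.112, the reverse of their order in WT liver, where the ranges of this pair overlapped. In KO brain the order was that of WT brain.

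**Figure D1:**
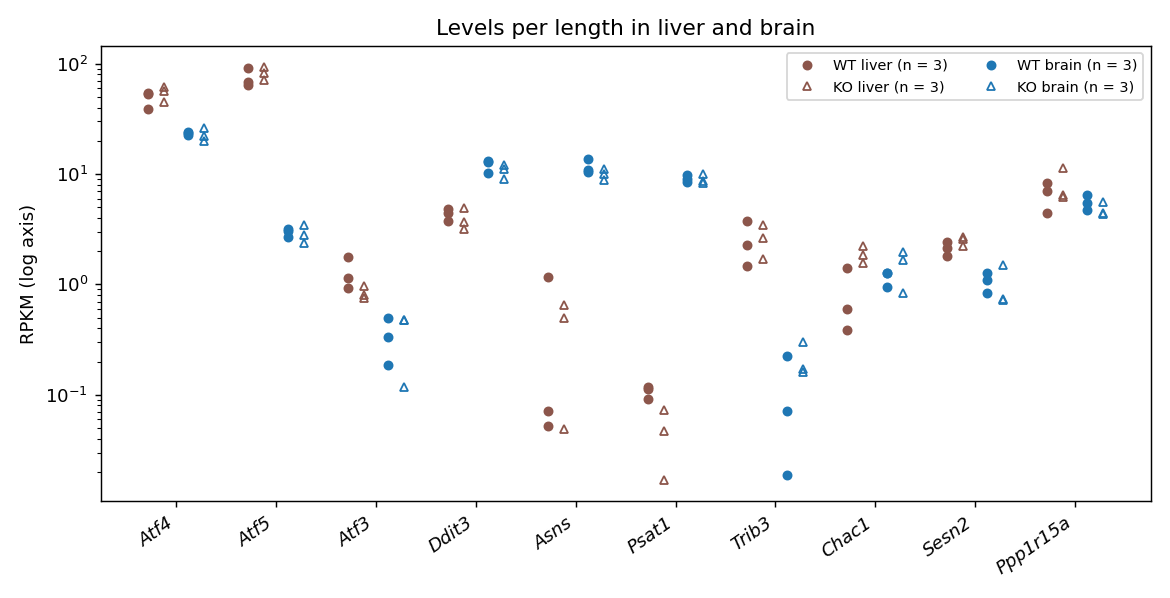
RPKM (log axis) of the 10 genes in each of the 12 libraries, with liver in brown and brain in blue, WT as filled circles and KO as open triangles (n = 3 each). Atf5 and Trib3 stood higher in liver and Ddit3, Asns and Psat1 higher in brain in both genotypes, while the tissues overlapped for Chac1.

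Most of these genes differed between the tissues. The comparison of WT liver with WT brain (edgeR, Benjamini-Hochberg over 18944 genes, called at an adjusted p under 0.1) called 5 of the 10 higher in liver and 3 higher in brain. The tissues differ widely in general, since 34.8% of all genes tested were called higher in liver and 43.6% higher in brain, so the number of calls among the 10 genes does not set them apart. The libraries did not overlap for the same 8 genes, as for 34.1% of all genes with liver above brain and 43.2% with brain above liver. The median log2 difference (liver minus brain) was 0.61 over the 10 genes and -0.209 over all genes. The latter was -0.299 with RLE size factors and 0.286 with an offset for GC content and length, which also moved the calls over all genes from 6592 higher in liver and 8253 higher in brain to 8785 and 6869. Relative to the median gene, each of the 8 differences kept its sign under 13 alternatives.

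Among the transcription factors, Atf5 differed most between tissues. Atf5, a relative of ATF4 that is also controlled through its leader, measured 91.0, 67.8 and 64.5 RPKM in the livers of WT mice B, D and E, and 2.69, 3.04 and 3.18 RPKM in their brains. The liver level was 25-fold higher (log2 4.65, SE 0.21, adjusted p = 8.29e-11), or 4.86 above the median gene. With the GC and length offset the log2 difference was 5.40. Atf4 measured 53.7, 53.3 and 39.1 RPKM in the same livers and 23.3, 22.8 and 24.1 in the brains, a difference of 2.08-fold (log2 1.06, SE 0.17, adjusted p = 4.94e-05). The Atf4 difference was 1.27 relative to the median gene and ran from 0.68 to 1.51 over the alternatives. Atf3, a stress-induced repressor and early response factor, was low in both tissues, with 1.79, 0.925 and 1.15 RPKM in liver and 0.493, 0.185 and 0.331 in brain. It was called 3.87-fold higher in liver (log2 1.95, SE 0.48, adjusted p = 0.00214). Ddit3, which encodes the pro-apoptotic factor CHOP, went the other way, with 4.85, 4.42 and 3.77 RPKM in liver and 12.8, 13.0 and 10.3 in brain. Its level was 2.77-fold higher in brain (log2 -1.47, SE 0.20, adjusted p = 1.26e-05), so the ATF4 transcript and that of its target CHOP stood on opposite sides.

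The 2 amino acid synthesis enzymes were brain transcripts. Psat1, the phosphoserine aminotransferase of the serine pathway, measured 9.09, 9.72 and 8.52 RPKM in WT brain and 0.0923, 0.112 and 0.117 RPKM in WT liver, the latter from 6 to 7 counts per library. The brain level was 84.1-fold higher (log2 -6.39, SE 0.24, adjusted p = 1.92e-11). Asns, asparagine synthetase, measured 10.5, 10.8 and 13.7 RPKM in WT brain but 0.0718, 1.17 and 0.0519 in WT liver, where mouse D stood far above the others. The call, 28.4-fold higher in brain (log2 -4.83, SE 0.79, adjusted p = 0.000188), held without mouse D, when the log2 difference became -7.54, and was -4.36 without mouse B and -4.16 without mouse E. The other enzymes of the serine pathway were looked up after these values were seen. Phgdh, the first enzyme, had 4 to 7 counts per WT liver library and 406 to 648 per WT brain library (log2 -5.93, adjusted p = 2.51e-09), whereas Psph, the last enzyme, differed by -0.57 (adjusted p = 0.126).

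Of the feedback and redox genes, Trib3, a pseudokinase that restrains ATF4 and CHOP, was 22.8-fold higher in WT liver (log2 4.51, SE 0.60, adjusted p = 9.63e-06). Its levels were 2.28, 1.46 and 3.74 RPKM in liver and 0.0714, 0.0187 and 0.224 in brain, where a library held only 1 to 12 counts, and the log2 difference was 5.36 without mouse E. Sesn2, a leucine sensor that restrains mTORC1, measured 2.13, 2.43 and 1.82 RPKM in liver and 0.844, 1.09 and 1.26 in brain (log2 0.99, SE 0.29, adjusted p = 0.0061), and its difference was 1.73 with the GC and length offset. Chac1, which degrades glutathione, was not called between tissues, with 0.60, 1.41 and 0.39 RPKM in liver and 1.27, 0.948 and 1.26 in brain (log2 -0.55, SE 0.45, adjusted p = 0.284). It was called higher in brain without mouse D, the WT mouse with the most Chac1 in liver (log2 -1.34, adjusted p = 0.0257). Ppp1r15a was also not called, at 8.27, 6.95 and 4.42 RPKM in liver and 4.73, 6.44 and 5.50 in brain (log2 0.24, SE 0.26, adjusted p = 0.429). Thus the 4 genes with TGATGNAA in the promoter windows printed at the start comprised 2 higher in liver (Atf3 and Trib3), 1 higher in brain (Asns) and 1 not called (Chac1).

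The same contrast between KO liver and KO brain was added after the data were seen. It uses other mice but the same fit, so the estimate of spread is shared. The 8 genes were called in the same directions, and Ppp1r15a was called higher in liver as well (log2 0.74, SE 0.26, adjusted p = 0.0207), beside 35.5% of all genes called higher in liver and 44.6% higher in brain. The log2 differences in KO were 4.83 for Atf5, 1.27 for Atf4, 1.2 for Atf3, -1.46 for Ddit3, -4.67 for Asns, -7.58 for Psat1, 3.63 for Trib3 and 1.34 for Sesn2. Chac1 was at 0.33 (adjusted p = 0.489), with KO liver between 1.57 and 2.21 RPKM and KO brain between 0.832 and 1.96.

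The next comparison asked whether the 10 transcripts differ with loss of Mettl5 in the liver. None of the 9 genes with enough counts to be tested was called (0% of the 14075 genes tested in liver were, with 1032 at an unadjusted p under 0.05, Chac1 the only 1 of these 9 among them, and 171 called by DESeq2, none of them among these 9). The median log2 fold change (KO over WT) was 0.12 over the 9 genes and -0.002 over all genes, and 6 were above 0 and 3 below. The Atf4 libraries read 99.6, 101 and 73.6 CPM in WT and 105, 114 and 83.1 in KO. They overlapped, and the fold change was 0.14 on the log2 scale (SE 0.17, adjusted p = 0.925), with a 95% interval from 0.841-fold to 1.44-fold. Atf5 read 143, 109 and 103 CPM in WT and 110, 129 and 146 in KO (log2 0.12, SE 0.17, adjusted p = 0.934), with an interval from 0.835-fold to 1.42-fold. Both abundant factors overlapped between genotypes, and larger changes than these bounds lie outside the intervals.

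Ddit3 read 6.54, 6.08 and 5.17 CPM in WT liver and 4.88, 6.60 and 4.28 in KO liver (log2 -0.18, SE 0.24, adjusted p = 0.93). Atf3 read 3.04, 1.60 and 1.99 CPM in WT and 1.26, 1.34 and 1.62 in KO, so that all but 1 KO library lay below all WT libraries (log2 -0.65, SE 0.35, adjusted p = 0.766). The Atf3 counts behind these values ran from 21 to 59 per library.

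Chac1 was the only one of the 9 genes whose KO and WT liver libraries did not overlap. It read 0.772, 1.86 and 0.511 CPM in WT mice B, D and E and 2.35, 2.01 and 2.82 CPM in KO mice A, C and F, from 15, 29 and 9 counts against 39, 36 and 54. All KO values were higher, with the WT library of mouse D close below them. The fold change was 2.31 (log2 1.21, SE 0.47, 95% interval 0.14 to 2.27), and it did not pass the adjustment over all genes (adjusted p = 0.629). The log2 fold change stayed between 0.88 and 1.88 over 12 alternatives, with adjusted p-values from 0.216 to 0.985. Libraries did not overlap with KO above WT for 6.5% of the genes tested in liver and with KO below WT for 6.44%, so 1 gene of 9 is near the background. Chac1 lies on chromosome 2, as Mettl5 does, at a distance of 49.5 Mb, and Trib3 lies 82.5 Mb from Mettl5 on the same chromosome.

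Trib3 read 3.81, 2.50 and 6.36 CPM in WT liver and 4.34, 2.85 and 5.74 in KO liver (log2 0.03, SE 0.38, adjusted p = 0.994). Sesn2 read 5.82, 6.79 and 5.05 CPM in WT and 7.23, 6.04 and 7.04 in KO (log2 0.20, SE 0.20, adjusted p = 0.888). The Trib3 libraries of the genotypes were interleaved, whereas 2 of the 3 KO libraries of Sesn2 lay above all WT libraries. Ppp1r15a read 19.1, 16.4 and 10.4 CPM in WT and 26.0, 14.2 and 14.8 in KO (log2 0.26, SE 0.30, adjusted p = 0.913), and without mouse A, whose KO liver library stood highest, the log2 fold change was -0.08. The same library had the highest sum of the 12 immediate early genes in liver, 312 CPM against 120 to 128 in the other KO livers and 86.8 to 193 in the WT livers, with Npas4 at 3 counts or fewer in every liver library. The part of that list in the Ppp1r15a value was not tested.

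Asns split the liver libraries in a way that the genotype labels did not follow. It had 40 counts in WT mouse D, 23 in KO mouse A and 19 in KO mouse C, but 3 in WT mouse B, 2 in WT mouse E and 2 in KO mouse F. The coefficient of variation was 149% in WT liver and 78.3% in KO liver, against 15.6% and 11.0% in the brains of the same mice. The log2 fold change of -0.12 (SE 1.27, adjusted p = 0.994) thus had an interval from 0.112-fold to 7.57-fold, and it was 2.59 without mouse D and 0.41 without mouse F. Psat1 was not tested in liver. It had 6, 6 and 7 counts in the WT livers and 4, 1 and 3 in the KO livers, too few to pass the filter of this fit. The KO values (0.056 to 0.241 CPM) lay below the WT values (0.309 to 0.397 CPM), but such low counts do not allow a difference to be read.

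**Figure D2:**
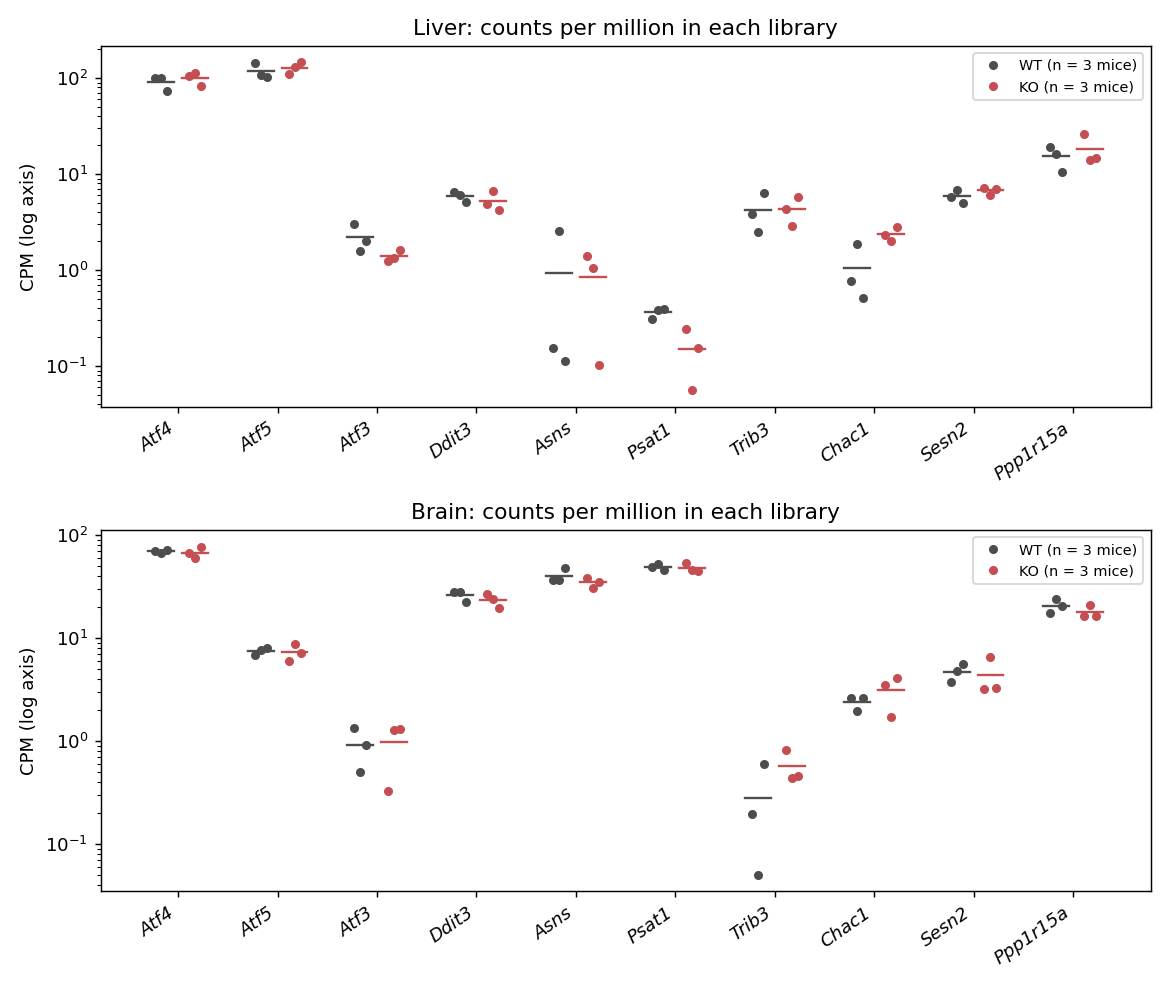
CPM (log axis) of the 10 genes in every library, liver above and brain below, with WT in grey and KO in red (points are mice, bars are means, n = 3 each). The KO and WT points overlap for every gene tested except Chac1 in liver, at 2.01 to 2.82 CPM in KO and 0.511 to 1.86 in WT. Psat1 in liver and Trib3 in brain are drawn but rest on at most 7 and 12 counts per library.

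In brain, none of the 9 genes tested was called either, and the KO and WT libraries overlapped for all 9. Over all 17188 genes tested in brain 0.064% were called, and libraries did not overlap for 8.41% with KO above WT and 7.94% with KO below WT. Of the 11 genes called, all higher in KO, 5 were olfactory bulb markers (Omp, S100a5, Cdhr1, Sp8 and Doc2g). An unadjusted p under 0.05 was reached by 1885 genes and DESeq2 called 269, none of either among these 9. The median log2 fold change was -0.04 over the 9 genes and -0.002 over all genes, and 2 were above 0 and 7 below. With the GC and length offset the median over the 9 genes was 0.05, and Atf4, Atf5 and Sesn2 moved above 0. These values stand beside the differences in the olfactory bulb, cerebellum and choroid plexus marker lists given at the start, whose part in them was not tested.

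The transcription factors were close between genotypes in brain. Atf4 read 70.0, 67.7 and 72.0 CPM in WT and 66.8, 59.6 and 77.7 in KO (log2 -0.04, SE 0.14, adjusted p = 0.925). Atf5 read 6.83, 7.63 and 8.04 CPM in WT and 6.02, 8.78 and 7.18 in KO (log2 -0.03, SE 0.21, adjusted p = 0.961). The KO libraries lay on both sides of the WT libraries for these 2 genes, and the coefficient of variation of Atf4 was 3.05% in WT and 13.4% in KO, a difference that was not tested. Ddit3 read 28.0, 28.0 and 22.4 CPM in WT and 26.7, 24.1 and 19.8 in KO (log2 -0.15, SE 0.17, adjusted p = 0.714). Atf3 had 4 to 21 counts per brain library, with 0.325 to 1.32 CPM in KO and 0.502 to 1.35 in WT (log2 0.13, SE 0.58, adjusted p = 0.944).

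The synthesis enzymes, abundant in brain, overlapped between genotypes there. Psat1 read 49.3, 52.1 and 46.0 CPM in WT brain and 54.1, 46.2 and 45.1 in KO brain (log2 -0.02, SE 0.13, adjusted p = 0.963), with an interval from 0.801-fold to 1.21-fold. Asns read 36.5, 37.1 and 47.7 CPM in WT and 38.4, 30.8 and 35.3 in KO (log2 -0.22, SE 0.16, adjusted p = 0.605), with an interval from 0.674-fold to 1.10-fold. The smallest adjusted p of the 9 genes was that of Asns. Ppp1r15a read 17.7, 23.8 and 20.5 CPM in WT and 16.3, 20.9 and 16.5 in KO (log2 -0.21, SE 0.17, adjusted p = 0.639). Sesn2 ranged from 3.74 to 5.58 CPM in WT and from 3.17 to 6.55 in KO (log2 -0.12, SE 0.33, adjusted p = 0.902), and Chac1 from 1.96 to 2.64 and from 1.73 to 4.09 (log2 0.37, SE 0.36, adjusted p = 0.685). Trib3 was too low to be tested in brain, with 3, 1 and 12 counts in WT and 10, 6 and 7 in KO.

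**Figure D3:**
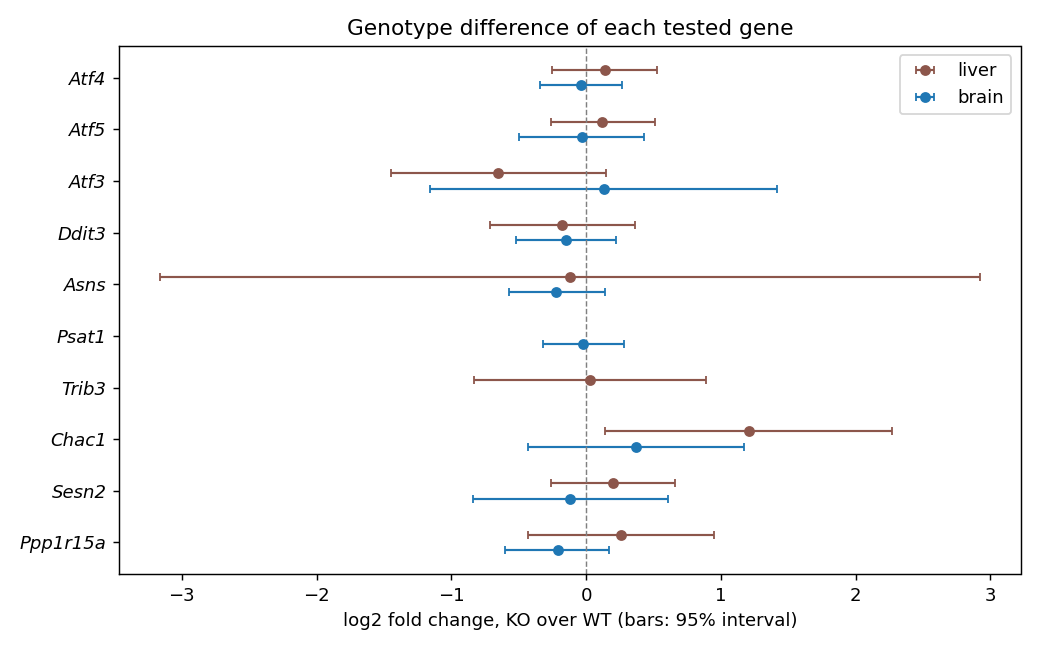
Log2 fold change of KO over WT with its 95% interval for the 9 genes tested in liver (brown) and the 9 tested in brain (blue). The intervals are narrowest for Psat1 and Atf4 in brain and widest for liver Asns (-3.16 to 2.92), and liver Chac1 alone has an interval above 0 (0.14 to 2.27) although its adjusted p was 0.629.

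The genotype difference in liver was then set against that in brain, by subtracting the brain effect from the liver effect in a fit of all 12 libraries. None of the 10 genes was called, as for 0% of the 18944 genes tested (2004 had an unadjusted p under 0.05, with 1 of the 10, Psat1, among them, and DESeq2 called 369 and none of the 10). With the mouse as a replicate block, 68 genes were called and still none of the 10. Psat1 and Trib3 entered this fit only through the tissue where they are high, as they had too few counts to be tested in liver and in brain respectively. Their differences are therefore given without a reading. They were -1.19 for Psat1 (SE 0.44, adjusted p = 0.443, 1 to 7 counts per liver library) and -0.88 for Trib3 (SE 0.83, adjusted p = 0.725, 1 to 12 counts per brain library). Chac1 differed by 0.88 (SE 0.61, adjusted p = 0.64) and Atf3 by -0.75 (SE 0.69, adjusted p = 0.717). Atf4 differed by 0.21 (SE 0.23, adjusted p = 0.779).

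The 10 transcripts did not move as one set between mice. After each gene was centred on its tissue mean, 21 of the 45 pairs had a positive Pearson r over the 12 libraries, and the median r was -0.02, from -0.6 for Ddit3 with Trib3 to 0.64 for Atf4 with Asns. These are descriptions over libraries that share mice between the tissues. Within the 6 liver libraries the median was 0.06 and within the 6 brain libraries -0.08. The mean of the 10 centred genes was highest in the livers of KO mouse A (0.25 on the log2 scale) and WT mouse D (0.22) and lowest in the liver of WT mouse E (-0.33), so the extremes held both genotypes, and it ran from -0.16 to 0.14 in brain. Asns, with 2 to 40 counts per liver library, carried much of this order. Without it, chosen after seeing the data, the mean of the other 9 genes was 0.13 in KO mouse A, 0.01 in WT mouse D and -0.20 in WT mouse E. Over 18934 other genes, the profile most like this mean was that of Fst, which encodes the activin antagonist follistatin (r = 0.94, 12 libraries), followed by Arel1 (0.92), Bag4, Nsg2 and Sertad1 (0.90 each). The most opposite were Sult1c2 (-0.92), Rftn1 (-0.91) and Qdpr (-0.89). Against the mean without Asns, the first 5 had r from 0.49 to 0.74 and the last 3 from -0.66 to -0.55, so their likeness rests in part on Asns.

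The rest of the pathway was read through 8 lists with 75 genes. Between genotypes, 0 of the 66 genes tested in liver and 0 of the 67 tested in brain were called, with 5 and 8 at an unadjusted p under 0.05. DESeq2 called 2 in liver (Eif2ak2 and Eif2s2) and 1 in brain (Aldh1l2), all lower in KO. In liver 23 were above 0 and 43 below (65.2%), and in brain 17 were above and 50 below (74.6%), beside 50.4% and 50.2% of all genes tested that were below 0. The KO libraries lay below all WT libraries for 7 genes in liver (10.6%, beside 6.44% of all genes) and 12 in brain (17.9%, beside 7.94%), and above them for 3 in liver (4.5%, beside 6.5%) and 2 in brain (3%, beside 8.41%). Beside the liver values, all 8 Kupffer cell and macrophage markers (median -0.34) and all 5 erythrocyte markers (median -0.21) were below 0 without a call. Their sums overlapped between genotypes, with 271 to 542 CPM in KO liver and 368 to 593 in WT liver for the former and 88 to 273 and 165 to 241 for the latter, and none of these markers was at 3 counts or fewer in every library of a liver group. Their part in the liver values was not tested.

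Upstream of ATF4, the median of the 4 eIF2 kinases was 0.03 in liver and -0.13 in brain. The gene of smallest p in liver was Eif2ak2, which encodes the double-stranded RNA sensor PKR. It read 24.7, 30.1 and 25.8 CPM in WT liver and 17.2, 14.5 and 17.9 in KO liver (log2 -0.70, SE 0.14, adjusted p = 0.383). In brain it read 7.93, 7.28 and 7.44 CPM in WT and 11.3, 9.13 and 9.95 in KO (log2 0.42, SE 0.18, adjusted p = 0.435). The libraries did not overlap in either tissue and the KO values lay on opposite sides, with a difference of -1.09 between the effects (SE 0.22, adjusted p = 0.132) that did not pass the edgeR test but was called by DESeq2. In brain the smallest p was that of Eif2ak3, which encodes the endoplasmic reticulum sensor PERK, with 36.5, 50.1 and 41.9 CPM in WT and 22.4, 33.2 and 26.5 in KO (log2 -0.65, SE 0.18, adjusted p = 0.354). Its liver value was -0.08 (SE 0.12, adjusted p = 0.939).

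The 10 genes for eIF2, its exchange factor eIF2B and the phosphatase had a median of -0.15 in liver and 0.04 in brain. Eif2s2, the beta subunit of eIF2, read 64.3, 48.3 and 54.7 CPM in WT liver and 36.9, 32.0 and 28.2 in KO liver, without overlap (log2 -0.79, SE 0.15, adjusted p = 0.383). It was at 0.51 in brain (SE 0.21, adjusted p = 0.42), where the libraries overlapped, and the difference of the effects was -1.27 (SE 0.28, adjusted p = 0.152 by edgeR, called by DESeq2). Eif2b4, an eIF2B subunit, had the smallest p of the list in brain (log2 -0.41, SE 0.16, adjusted p = 0.408). Among the basic leucine zipper partners of ATF4, with medians of -0.07 and -0.13, these were Nfe2l2 in liver (log2 -0.47, SE 0.18, adjusted p = 0.593) and Jdp2 in brain (log2 -0.16, SE 0.12, adjusted p = 0.609).

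Downstream, Aldh1l2, a mitochondrial folate enzyme, had the smallest p of the amino acid and one-carbon synthesis list in both tissues. It read 13.7, 15.9 and 11.2 CPM in WT brain and 6.58, 8.70 and 6.99 in KO brain (log2 -0.87, SE 0.20, adjusted p = 0.32). In liver it read 1.75, 0.96 and 0.738 CPM in WT and 0.602, 0.56 and 0.469 in KO (log2 -1.08, SE 0.47, adjusted p = 0.674), again without overlap but from 9 to 34 counts. The list had medians of -0.10 in liver and -0.21 in brain, where 10 of its 11 tested genes were below 0. Shmt2, a mitochondrial serine enzyme of this list, is named because DESeq2 called its difference of effects, the only other such call in the 8 lists. It read 190, 175 and 196 CPM in WT liver and 200, 228 and 235 in KO liver, but 12.8, 16.6 and 13.3 in WT brain and 6.34, 9.93 and 9.95 in KO brain, so the KO libraries lay above WT in liver and below WT in brain (difference 0.97, adjusted p = 0.203 by edgeR). For amino acid transporters (medians 0.10 and -0.22) the smallest p belonged to Slc7a5 in liver (log2 0.70, SE 0.32, adjusted p = 0.69) and Slc38a2 in brain (log2 -0.31, SE 0.15, adjusted p = 0.471), and for cytosolic tRNA synthetases (medians -0.02 and -0.10) to Xpot, a tRNA exporter counted with them, in liver (log2 -0.26, SE 0.13, adjusted p = 0.747) and Mars in brain (log2 -0.28, SE 0.13, adjusted p = 0.464).

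In the list of secreted and growth control targets (medians -0.24 and -0.05), Ddit4, an inhibitor of mTORC1, read 3.45, 3.14 and 5.62 CPM in WT liver and 1.2, 1.57 and 2.45 in KO liver (log2 -1.22, SE 0.37, adjusted p = 0.476). Herpud1, which acts in endoplasmic reticulum protein degradation, read 23.5, 34.5 and 25.7 CPM in WT brain and 16.8, 20.4 and 18.2 in KO brain (log2 -0.59, SE 0.18, adjusted p = 0.355). The libraries of both genes did not overlap. Of the CHOP-linked genes (medians -0.28 and -0.23), Pmaip1 had the smallest p in liver (log2 -0.81, SE 0.41, adjusted p = 0.738) and Bcl2l11 in brain (log2 -0.56, SE 0.34, adjusted p = 0.542). The brain values of all these lists again stand beside the regional marker differences. In brain all 5 astrocyte markers (median -0.3) and all 5 erythrocyte markers (median -0.24) were also below 0 without a call. The neuronal, oligodendrocyte and microglia lists had markers on both sides of 0. The part of all these markers in the brain values was not tested.

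Between tissues the wider pathway was as divided as the 10 genes. In WT, 38 of the 72 genes tested were called higher in liver (52.8%) and 22 higher in brain (30.6%), beside 34.8% and 43.6% of all genes tested. In the eIF2 and phosphatase list 6 of the 10 genes tested were called and in the CHOP-linked list 4 of 7, all higher in liver, with list medians of 0.52 and 0.89. The tRNA synthetases had 8 calls higher in liver and 4 in brain (median 1.01) and the basic leucine zipper partners 5 and 3 (median 1.97). Batf2, among these partners, had at most 2 counts in each WT brain library, so its fitted difference is uncertain. Amino acid and one-carbon synthesis had 5 calls in each direction (median -0.57), transporters 3 higher in liver and 6 in brain (median -0.90), the secreted and growth control targets 5 and 3 (median 2.10), and the eIF2 kinases 2 and 1 (median 0.44).

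Some genes of these lists were near absence in a tissue, and they are named here after their values were seen. Slc7a11, the cystine transporter subunit, had at most 1 count in each WT liver library and stood at 45.5 ± 1.80 CPM in WT brain (SD, n = 3). Fgf21 and Gdf15, stress-induced hormones, had 0 counts in all WT brain libraries and 1.12 ± 1.05 and 3.01 ± 1.81 CPM in WT liver. These CPM are scaled within a tissue, so no fold between the tissues is given. Of the 15 genes named for the smallest p between genotypes, 9 were called higher in WT liver, 4 higher in WT brain and 2 (Eif2ak3 and Pmaip1) in neither. The 9 were Nfe2l2 (log2 3.45), Herpud1 (3.39), Eif2ak2 (2.50), Mars (1.48), Eif2s2 (1.09), Xpot (1.04), Slc38a2 (1.03), Bcl2l11 (0.89) and Eif2b4 (0.59), and Aldh1l2 (-2.87), Jdp2 (-2.99), Slc7a5 (-2.53) and Ddit4 (-1.18) were the 4 higher in WT brain. Shmt2 was also called higher in WT liver (4.39).

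**Figure D4:**
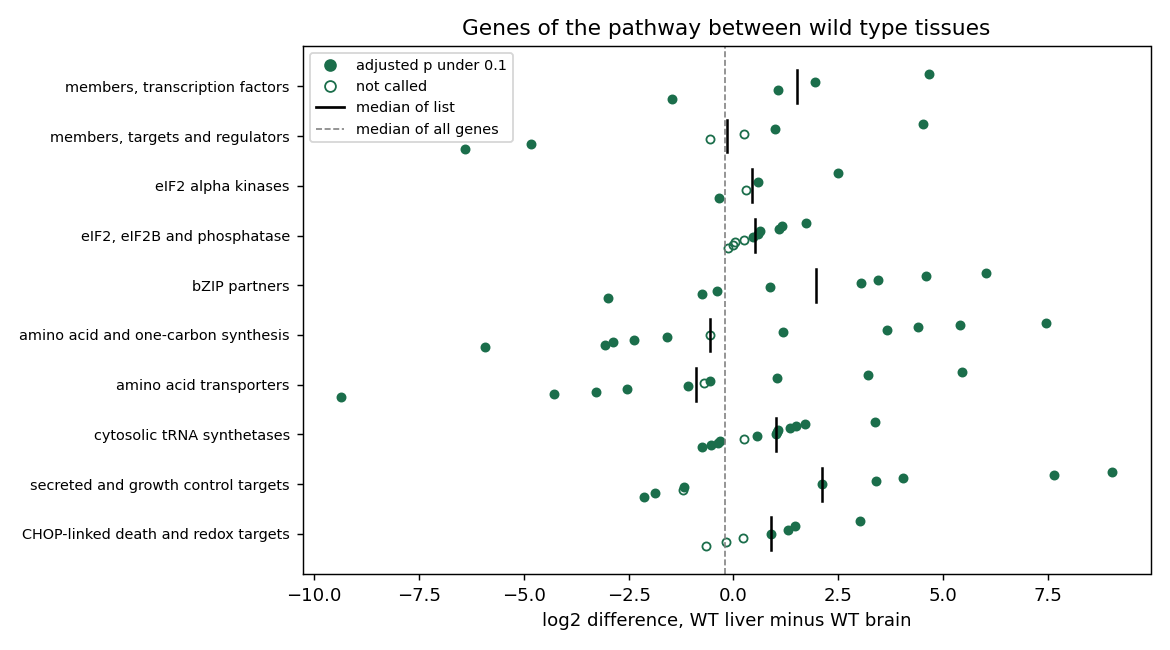
Log2 difference of WT liver minus WT brain for the 10 genes, in 2 groups by role, and for the 8 pathway lists, with filled points for genes called at an adjusted p under 0.1, open points for the others, a black bar for the median of each list and a dashed line for the median of all genes (-0.209). Values beyond 7 on either side of 0 include fitted values of genes at or near 0 counts in a tissue, such as Slc7a11, Fgf21 and Gdf15. Each list except the eIF2 and phosphatase genes and the CHOP-linked genes has calls on both sides.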

How the data were processed

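Total RNA libraries (SMARTer Stranded v2, single-end) from 6 mice were processed by the authors, who trimmed reads with Trimmomatic, aligned them to mm10 with STAR 2.7.3a and assigned reads to exons by featureCounts, set for reverse-stranded libraries. What the authors deposited is 1 table of raw, unnormalised counts per gene in the 12 libraries, with exonic lengths. Tests were run on these counts in R 4.3.3 with edgeR 4.0.16 (TMM, filterByExpr, robust quasi-likelihood F test, Benjamini-Hochberg over all genes tested, called at an adjusted p under 0.1). Genotypes were compared in separate fits of the 6 libraries of a tissue, and tissues in a fit of all 12. SE and 95% intervals follow from the F statistic. Intervals cover counting error or spread between these mice only. The fits were tested on simulated data.

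The 10 genes and the pathway and marker lists were chosen with earlier results of these data known. Named from each pathway list, per tissue, were called genes (there were none) and the gene of smallest p between genotypes, together with the 5 genes most like and the 3 least like the mean profile. Other names are marked as chosen after their values were seen. The alternatives were RLE size factors, DESeq2 1.42.0, no filter, an adjusted p under 0.05, each mouse left out, a covariate for Y-linked transcripts (absent in 1 mouse of each genotype), a GC and length offset, all 12 libraries in one fit, and a block.

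The labels pair the liver and brain of each mouse by letter. Over 12574 genes the correlation of the paired deviations from the group means was -0.0318 (A), -0.0387 (B), -0.0106 (C), 0.121 (D), 0.14 (E) and 0.141 (F).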

Additional observations from a re-analysis of the deposited data

How the results depend on the processing

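None of the 10 genes was called between genotypes, or in the difference of the effects, under any alternative run. The 5 genes called higher in WT liver and the 3 called higher in WT brain stayed 5 and 3, except that 1 was added without mouse D (Chac1, brain) and 1 when KO libraries took the place of WT (Ppp1r15a, liver), an alternative chosen after seeing the data. The number of all genes called moved more. In liver it went from 0 to 171 with DESeq2, 443 without the filter, 82 with the Y-linked covariate, 3 with all 12 libraries in one fit, and 0 to 87 with a mouse left out (87 without mouse D). In brain it went from 11 to 269 with DESeq2, 1000 without the filter, 92 with the GC and length offset, and 2 to 23 with a mouse left out (23 without mouse C, 6 without A, 3 without B, 4 without D, 2 without E and 5 without F). For the difference of the effects it went from 0 to 1 with RLE, 369 with DESeq2, 183 without the filter, 46 with the offset, and 0 to 86 with a mouse left out (86 without mouse D). With the replicate block, 68 genes were called for that difference, and the paired fit changed no call of the 10 genes. The causes of these moves were not tested.

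Signs changed only for values that were not called. Of the log2 values of the 10 genes, 101 of 108 kept their sign in liver, 93 of 108 in brain, 111 of 120 for the difference of the effects and 128 of 130 between WT tissues. With the GC and length offset, Trib3 in liver became -0.01, Atf4, Atf5 and Sesn2 in brain 0.09, 0.11 and 0.05, and the Atf5 difference of effects -0.05. The Ddit3 difference became -0.01 with RLE and with DESeq2. Chac1 between tissues was 0.33 with KO libraries. With a mouse left out, liver values ran from -0.66 to 2.59 for Asns, -0.23 to 0.44 for Trib3 and -0.08 to 0.45 for Ppp1r15a. Brain values ran from -0.15 to 0.05 for Atf4, -0.19 to 0.09 for Atf5, -0.17 to 0.52 for Atf3, -0.11 to 0.03 for Psat1 and -0.54 to 0.06 for Sesn2. Differences of effects ran from -0.16 to 0.16 for Ddit3 and -0.51 to 2.87 for Asns, and Ppp1r15a between WT tissues from -0.08 to 0.45. Psat1 in liver and Trib3 in brain had too few counts to pass the filter of the reported fits and were tested, without a call, only under some alternatives, Atf3 in brain and Chac1 in WT liver rest on few counts, and the interval of Asns in liver is wide because of the spread between mice.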
